A study of Mus musculus with 2 samples.

Results

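Neutrophil granule genes code for the proteases, the peroxidase and the antimicrobial proteins that developing neutrophils pack into storage granules. Of the 23571 genes measured in mTEChi (thymic medullary epithelial cells that carry much MHC class II), 10 were taken here as granule genes: Elane, Mpo, Prtn3, Ctsg, Camp, Ngp, Ltf, Lcn2, Mmp8 and Mmp9. They were chosen by measured values, because Elane had reads in the Ctr library and none in the Clp1 knockdown library. Their ratios between the libraries are therefore given as a description. All 10 genes had at least 10 reads over both libraries.

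Both libraries came from 1 lentigenic B6 mouse. It carried 3 small hairpin RNAs against Clp1, a factor of mRNA 3' end processing, under a doxycycline-inducible TRE3G promoter together with a green fluorescent reporter, and the TetOn3G transactivator under an EF1 promoter. From the age of 3 weeks the mouse ate food with 2 g of doxycycline per kg over 2 weeks, so the drug was shared by both groups. Whether the GFP-negative cells carried the hairpin construct is not stated in the sources. Cells negative for CD45, high for MHC class II and low or intermediate for Ly51 were sorted by GFP, the positive cells giving Clp1 knockdown and the negative cells Ctr, with 1 library per group. No p-value was computed, every difference is between these libraries without a replicate check, and the 95% intervals cover counting error alone, since amplified reads are not independent molecules.

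Neutrophils form their granules in a fixed order as they mature in the bone marrow. Promyelocytes make the primary (azurophilic) granules, which hold myeloperoxidase and the serine proteases elastase, proteinase 3 and cathepsin G, and shut these genes down before later precursors fill the secondary (specific) granules with cathelicidin, lactoferrin and lipocalin 2. Gelatinase granules, rich in Mmp9, come last. Mature neutrophils hold the proteins but little mRNA of the primary granule genes, and several granule genes, Lcn2 and Mmp9 among them, are also used by epithelia and other cells.

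The libraries held 28464803 (Ctr) and 37524730 (knockdown) reads, and Clp1 itself had 1573 and 812 reads, which after scaling left 39.7% of the Ctr level. Markers of mTEChi were abundant in both, with 7462 and 8264 reads of Aire and 148783 and 167275 reads of H2-Aa. Genes of other cells were read as well. Of 6 general leukocyte genes, 4 were at least 2-fold lower with the knockdown, against 19.7% of all genes. Ptprc, which codes for the CD45 used to exclude cells in the sort, had 1987 and 1050 reads. In such bulk libraries fewer cells of a type and less RNA per cell cannot be told apart.

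Short stretches upstream of the RefSeq start sites of granule genes are shown first because primary and secondary granule genes are textbook targets of PU.1, which binds GAGGAA, and of C/EBP factors, which bind TTGCNNAA. Both motifs were searched on both strands in the 250 bases before the start site of the 9 members whose promoters were matched by symbol in the RefSeq table (GRCm38.p6), with positions found by matching the sequence to mm9. Each stretch is 30 bases, written 5' to 3' on the strand of the gene, with the motif in capitals.
Elane, chr10:79348961-79348990, plus strand: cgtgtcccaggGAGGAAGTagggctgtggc
Prtn3, chr10:79342306-79342335, plus strand: caaactggaagGAGGAAGTgggacccacag
Mpo, chr11:87607051-87607080, plus strand: gtggagagagaGAGGAAGTtgcctttgtcc
Ctsg, chr14:56721610-56721639, minus strand: ctcccagaaggaGAGGAAgaaaaggaagta
Mmp8, chr9:7558197-7558226, plus strand: taactagcacaACTTCCTCattacacacag
Ngp, chr9:110322163-110322192, plus strand: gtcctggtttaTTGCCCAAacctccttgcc
Lcn2, chr2:32243457-32243486, minus strand: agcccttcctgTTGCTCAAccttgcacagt

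GAGGAA was found in 7 of the 9 promoters (Ctsg, Elane, Lcn2, Ltf, Mmp8, Mpo and Prtn3) and in 23.3% of all 32851 promoters of the same length. The form with GT after it, GAGGAAGT, which was searched after the stretches had been read, was present in Elane, Prtn3 and Mpo and, on the opposite strand, in Mmp8. It was found in 2.44% of all promoters. TTGCNNAA was found in 4 promoters (Lcn2, Ltf, Mmp8 and Ngp) and in 9.56% of all. Among the primary granule members, then, all 4 promoters held GAGGAA and none held TTGCNNAA within these 250 bases. Each match is a description of the letters, and Elane and Mpo shared GAGGAAGT although their ratios between the libraries differed.

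Of the 10 granule genes, 8 had a level at least 2-fold lower with the knockdown and 0 had a level at least 2-fold higher. By the same rule, which asks for a ratio of 2 or more, an interval that excludes no change and at least 10 reads, 19.7% of 18993 genes were lower and 22.0% were higher. The median log2 ratio (knockdown over Ctr, 0.5 added to scaled reads) was -2.16 over the granule genes and 0.03 over all genes. By granule, all 4 primary granule members and 3 of 4 secondary granule members were lower. Of the metalloproteinases, Mmp8 was lower and Mmp9 was not. The medians of the granules were -7.03, -1.89 and -0.25, although single genes crossed that order. Over whole transcripts Ltf of the secondary granule was below Mpo, and Mmp8 was below Lcn2. The primary median was -5.83 when Elane and Ctsg, without a knockdown read, were set at the bound given by a floor of 3 reads.

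**Figure D1:**
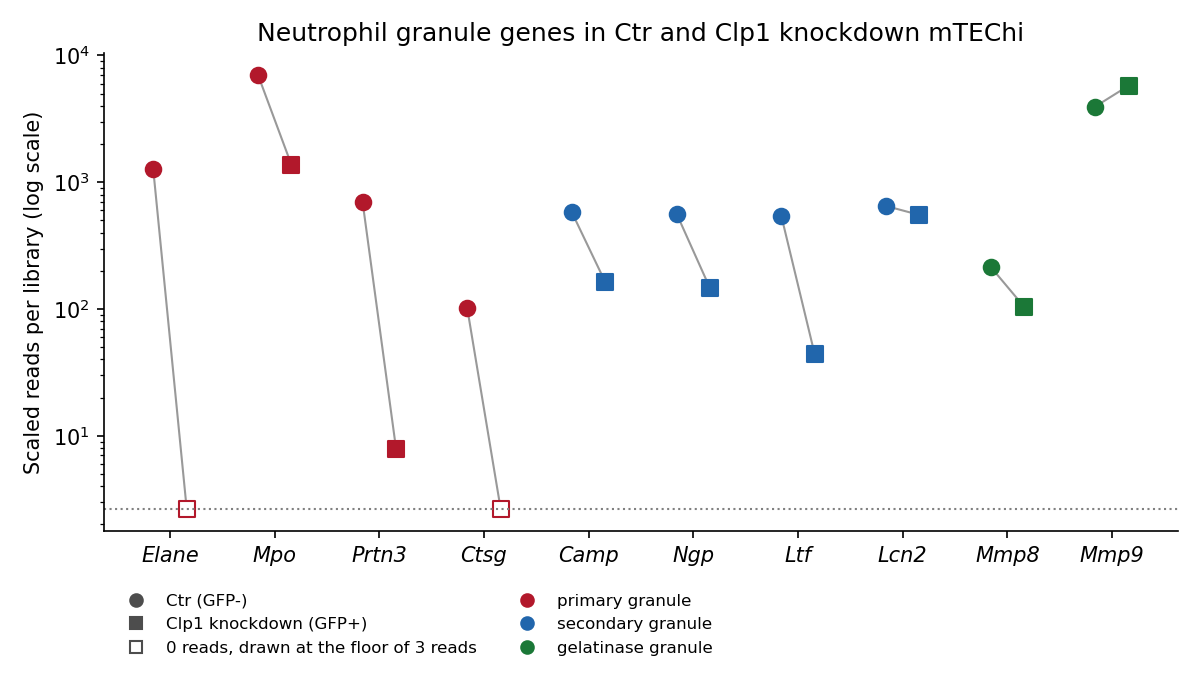
Scaled reads (counts divided by the size factor of the library, log axis) of the 10 granule genes in the Ctr library (circles) and the Clp1 knockdown library (squares), coloured by granule. Open squares mark 0 reads, drawn at the floor of 3 reads (dotted line). Elane and Ctsg sit on the floor, and the knockdown point of Mmp9 alone is above its Ctr point.

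Elane (NM_015779), which codes for neutrophil elastase and lies in mm9 at chr10:79349057-79350961 on the plus strand with 5 exons, had 1109 Ctr reads and 0 knockdown reads. At the Ctr level, the deeper knockdown library would have held 1442 Elane reads, so the gene was at least 481-fold lower against a floor of 3 reads, and the upper limit of its log2 ratio was -8.61. Elane was the 2nd most read of the 1079 genes with Ctr reads and no knockdown read, after Ackr1 with 3016 reads. Among genes with 50 or more Ctr reads, 1.05% had no read in the knockdown library. Of the granule genes Elane and Ctsg were in that state. Elane was so by the rule that chose the set, so its rank and this share are a description only. The 1109 reads were not a pile at 1 place, with 717 in the earlier exons (597 bp) and 360 in the last exon (300 bp), or 120 reads per 100 bp in each. No 50-base stretch of its transcript, the length of a read, was found in the transcript of another gene.

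Prtn3 (NM_011178; chr10:79342359-79345919, plus strand, 5 exons), the gene of proteinase 3, lies next to Elane. It had 614 Ctr reads and 9 knockdown reads, a log2 ratio of -6.47 (-7.61 to -5.54) that left 1.13% of the Ctr level. The 9 reads were divided between the earlier exons, with 5, and the last exon, with 4. Prtn3 was thus read in both libraries, and the limit for Elane was below its ratio by at least 1.83 on the log2 scale.

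Ctsg (NM_007800; chr14:56718718-56721411, minus strand), the gene of cathepsin G, had the fewest reads of the members, with 89 in Ctr and 0 with the knockdown. That library would have held 115.7 reads at the Ctr level, so Ctsg was at least 38.6-fold lower and its upper limit was -4.94. Its lower depth makes the limit looser than that of Elane, and the ratios of Ctsg and Prtn3 could not be told apart at this depth. The 3 serine protease members of the primary granule were therefore at or near 0 together in the knockdown library. Prss57, a further serine protease gene of primary granules outside the members, had 37 Ctr and 104 knockdown reads.

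Mpo (NM_010824; annotated gene span chr11:87607083-87617915, plus strand, 14 exons) codes for myeloperoxidase, which makes hypochlorous acid from hydrogen peroxide. It was the most read granule gene of Ctr, with 6185 reads, and still had 1567 in the knockdown library, a log2 ratio of -2.36 (-2.44 to -2.28). Mpo kept 19.5% of its Ctr level where Prtn3 kept 1.13%, and the ratio of Prtn3 was lower than that of Mpo by -4.11 (-5.25 to -3.17) on the log2 scale. For Elane against Mpo the upper limit of that difference was -6.25, and for Ctsg against Mpo it was -2.58. Primary granule members did not share 1 ratio, since the peroxidase gene kept 1567 knockdown reads and the protease members kept 0, 9 and 0. Exons of Mpo overlap the antisense gene Gm11505, and with the use of strand in counting not known from the sources, its reads are uncertain to that extent. The reads of Mpo were spread alike in both libraries, with 13.7% (12.8% to 14.6%) in the last exon in Ctr and 14.9% (13.2% to 16.8%) in the knockdown library.

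Camp and Ngp are secondary granule genes whose proteins share a cystatin-like fold. Camp (NM_009921; chr9:109749889-109751970, minus strand), the gene of the cathelicidin antimicrobial peptide, had 507 Ctr and 185 knockdown reads, with a log2 ratio of -1.83 (-2.08 to -1.59). Ngp (NM_008694; chr9:110322254-110325514, plus strand), the gene of neutrophilic granule protein, had 496 and 166 reads and a ratio of -1.96 (-2.22 to -1.70). Their difference, Ngp minus Camp, was -0.12 (-0.49 to 0.24). Both ratios were higher than that of Mpo, by 0.53 (0.26 to 0.79) for Camp and by 0.40 (0.13 to 0.67) for Ngp, so Mpo stood nearer to these secondary granule genes than to the proteases of its own granule. Less the median of genes of like GC content, Mpo was at -2.11 and Ngp at -2.03, a smaller difference.

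Ltf (NM_008522; chr9:110921796-110945270, plus strand, 17 exons) codes for the iron-binding protein lactoferrin. It had 479 Ctr reads and 50 knockdown reads, a log2 ratio of -3.64 (-4.09 to -3.22), below Mpo by -1.28 (-1.74 to -0.85). Its reads also lay differently along the transcript. In Ctr 41 of 475 reads, or 8.63% (6.27% to 11.5%), were in the last exon upstream of the proximal poly(A) site, and in the knockdown library 20 of 50 were, or 40.0% (26.4% to 54.8%). The earlier exons held 434 and 30 reads, so most of the loss was there. None of the reads of either library lay in the 448 bp distal 3'UTR, which at a floor of 3 reads allows a d3'UTR ratio (the read density beyond the proximal poly(A) site over that of the last exon upstream of it) of up to 0.0279 in Ctr and 0.0573 in the knockdown library. With the intervals of the shares apart, the size of the Ltf ratio depends on which exons are counted. So does its order against Mpo, which had 846 and 234 reads in its last exon. There the ratio of Ltf, on few reads, was above that of Mpo.

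Lcn2 (NM_008491; chr2:32240153-32243317, minus strand), the gene of lipocalin 2, which withholds iron by binding bacterial siderophores, had 570 Ctr reads and 630 knockdown reads. Its log2 ratio was -0.23 (-0.40 to -0.07), and 85.0% of the Ctr level was left. Among the secondary granule genes Lcn2 thus stood apart, higher than Camp by 1.60 (1.30 to 1.90) on the log2 scale.

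Mmp8 (NM_008611; chr9:7558429-7568486, plus strand) and Mmp9 (NM_013599; chr2:164773719-164781350, plus strand, 13 exons) are the neutrophil collagenase and gelatinase B. Mmp8, which human neutrophils store in specific granules and which was grouped here with Mmp9, had 189 Ctr and 119 knockdown reads, with a ratio of -1.05 (-1.39 to -0.71). Mmp9 had 3469 Ctr reads and 6598 knockdown reads, a ratio of 0.55 (0.49 to 0.61), or 146% of the Ctr level. Mmp9 was the one granule gene with a higher level in the knockdown library, and the interval of Mmp8 included both sides of the 2-fold line. Mmp9 also has a distal 3'UTR, and its d3'UTR ratio was 0.757 in Ctr (755 distal and 484 upstream reads) and 0.847 in the knockdown library (1517 and 870). The change of 0.16 (-0.05 to 0.37) on the log2 scale was within counting error.

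**Figure D2:**
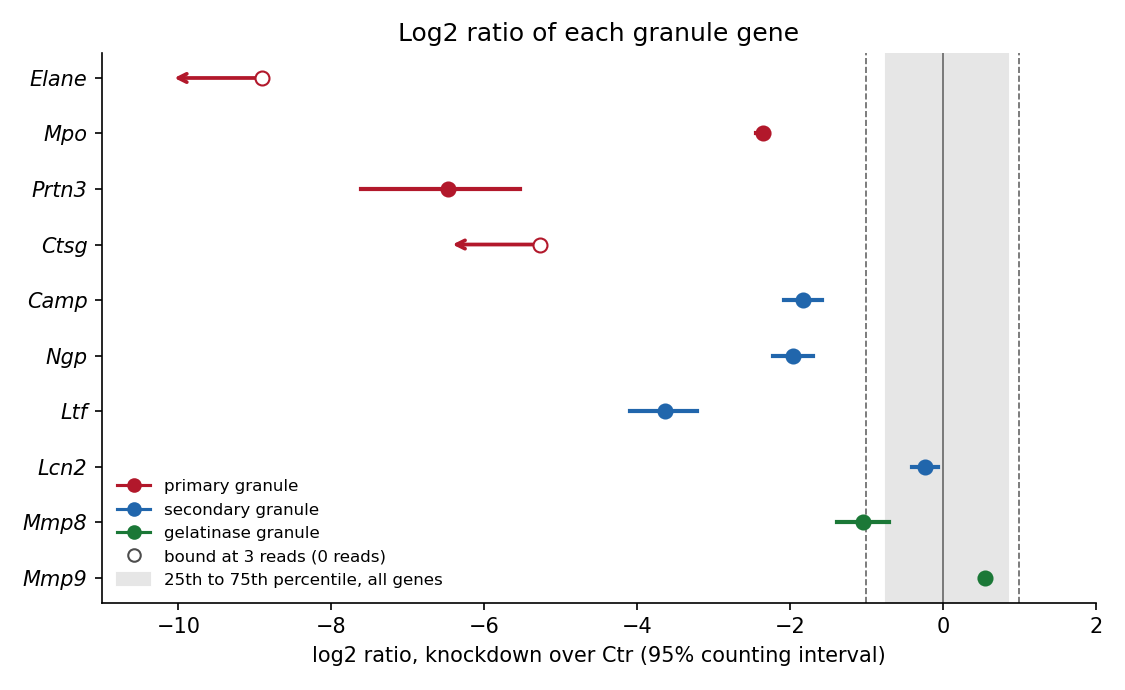
Log2 ratio of knockdown over Ctr (horizontal axis) for each granule gene, with exact 95% counting intervals and colours by granule. Open circles with arrows are bounds at 3 reads for genes with 0 knockdown reads, the grey band spans the 25th to 75th percentile of all genes, and dashed lines mark 2-fold. Elane, Prtn3 and Ctsg lie farthest to the left, Ltf at -3.64 lies left of Mpo at -2.36, and Lcn2 and Mmp9 lie inside the band.

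The order of the members by level changed between the libraries. Levels per length and depth are given as RPKM (reads per kilobase of transcript, scaled to the summed transcript counts of the library). Mpo led in Ctr at 85.3, followed by Elane at 42.3, Mmp9 at 38.8, Camp at 29.7, Lcn2 at 23.5 and Prtn3 at 22.2. Counting intervals of Elane and Mmp9 overlapped, as did those of Lcn2 and Prtn3. Ngp at 15.0 and Ltf at 6.14 RPKM came next, and Ctsg at 3.12 and Mmp8 at 2.71, which overlapped, were lowest. Among genes with at least 10 reads and a transcript length, 95.7% were below Mpo in Ctr RPKM and 90.8% below Elane, while 42.5% were below Ctsg and 39.7% below Mmp8. In the knockdown library Mmp9 led at 56.0 RPKM, ahead of Lcn2 at 19.7, Mpo at 16.4, Camp at 8.23, Ngp at 3.81, Mmp8 at 1.29, Ltf at 0.486 and Prtn3 at 0.247, the intervals of the last pair overlapping. Elane was at 0 there, with an upper limit of 0.107 RPKM, and so was Ctsg, with a limit of 0.0981 RPKM. Of all granule gene reads, Mpo took 45.1% in Ctr and 16.8% in the knockdown library, while Mmp9 took 25.3% and 70.8%.

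**Figure D3:**
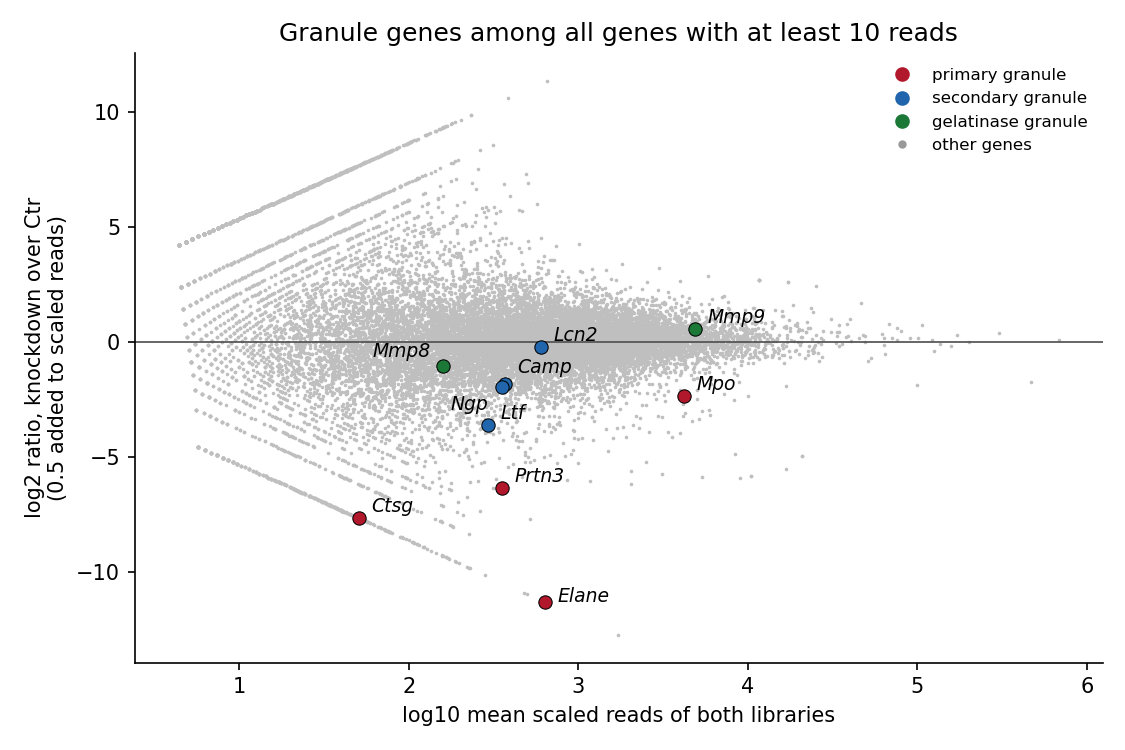
Log2 ratio of knockdown over Ctr (vertical axis, 0.5 added to scaled reads) against the log10 mean of scaled reads for all genes with at least 10 reads (grey) and the 10 granule genes (coloured by granule). Elane lies at the lower edge with 1 gene below it, Mpo and Prtn3 lie under the bulk of genes with like mean reads, and Lcn2 and Mmp9 lie within it.

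Genes that resembled Elane in reads and in their absence from the knockdown library were Hspa12b (879 Ctr reads), Gpm6a (843), Gng7 (493), Ackr1 (3016) and Fmod (403), all with 0 knockdown reads. Likeness to Elane is the distance of Ctr reads on the log2 scale among genes without a knockdown read. None of these is a granule gene, and Ackr1 is a marker of venular endothelium. Mmp9, the member with the most reads over both libraries, was most like Cep57, Oxa1l, Gca, Ddrgk1 and Txndc15, each with a log2 ratio of 0.55, likeness to Mmp9 being the difference in log2 ratio between the 2 libraries among genes with at least 1000 reads.

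Genes that process or hold granule proteins did not follow the primary granule proteases. Of 12 such genes with at least 10 reads, 4 were higher and 3 lower, with a median of 0.08. Over all genes 22.0% were higher and 19.7% lower. Srgn, the serglycin proteoglycan on which granule proteases are packed, had 37202 and 54465 reads (0.17), and Ctsc, the protease that activates elastase, proteinase 3 and cathepsin G, had 2665 and 4404 (0.35). The protease inhibitor genes Serpinb1a, with 15878 and 17923 reads (-0.20), and Serpinb6a, with 6175 and 4715 (-0.77), were below 2-fold. Slpi, an inhibitor of elastase that epithelia secrete, was lower with 1848 and 832 reads (-1.53), as was the cystatin gene Cst7 with 158 and 74 (-1.47), while Stfa2 (0 and 16 reads) and Stfa3 (20 and 85 reads), stefin genes with near-identical copies and therefore uncertain, were higher.

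Other genes of granule proteins also lacked the pattern of Elane. Of 24 with at least 10 reads, 5 were at least 2-fold higher and 0 lower, with a median of -0.12. The shares over all genes were 22.0% higher and 19.7% lower. Prss57, which codes for a further serine protease of primary granules, had 37 Ctr reads and 104 knockdown reads, a log2 ratio of 1.11 (0.56 to 1.69), opposite to Elane, Prtn3 and Ctsg. Bpi, a primary granule gene, was at 0 in both libraries, and the ficolin gene Fcnb had 6 and 5 reads. Among the most read were the oxidase subunit gene Cyba with 14503 and 15430 reads (-0.29), Gsn with 13808 and 11518 (-0.64) and the lysozyme gene Lyz2 with 8041 and 15840 (0.60), which has the near-identical copy Lyz1. Arg1, the arginase gene of gelatinase granules and macrophages, had 8 and 388 reads (5.22, 4.23 to 6.44), and Cd177, a neutrophil surface protein stored in secondary granules, had 758 and 2440 (1.31, 1.19 to 1.43). Plau, the gene of urokinase, had 1 and 29 reads (4.48, 1.89 to 9.83). The lowest of this list were Pglyrp1, with 2970 and 2088 reads (-0.89), and Mmp25, with 258 and 192 (-0.80).

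Among 20 regulators of granulopoiesis, 7 were at least 2-fold lower and 0 higher, with a median of -0.62. Of all genes, 19.7% were lower and 22.0% higher. The 7 were Cebpa (1045 and 565 reads), Cebpd (7459 and 3845), Gfi1 (161 and 76), the G-CSF receptor gene Csf3r (103 and 48), Csf2rb (5096 and 3062), Flt3 (1094 and 450) and Cd34 (4960 and 661). Cd34 was lowest, at -3.29, and is also a marker of endothelium. Cebpe, the factor on which secondary granule genes depend in neutrophil precursors, had 2 and 8 reads, while Spi1, which codes for PU.1, had 493 and 432 (-0.57) and Myb had 1814 and 2374 (0.01). Irf8 (10796 and 12040 reads, -0.22) and Cebpb (6796 and 5078, -0.80) were the most read besides Cebpd, and Runx1, with 626 and 1403 reads (0.79), had the highest ratio after Cebpe.

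Of 23 genes of mature neutrophils with at least 10 reads, 12 were lower and 2 higher, with a median of -1.16. For all genes the shares were 19.7% and 22.0%. Lrg1, which endothelium also expresses, had 2528 and 123 reads (-4.74), and Retnlg had 147 and 7 (-4.77). S100a8 and S100a9, which code for the paired subunits of calprotectin, moved apart, with 5448 and 4373 reads (-0.70, -0.75 to -0.64) for S100a8 and 1411 and 2118 (0.21, 0.11 to 0.31) for S100a9. Receptors that define mature neutrophils were at or near 0, with 12 and 8 reads for Cxcr2, 1 and 1 for Fpr2 and 0 in both libraries for Fpr1. Ncf1 had 5222 and 5348 reads (-0.34) and Ncf4 had 1491 and 2096 (0.11), and the highest ratios were those of Ifitm6, with 0 and 56 reads, and Itgb2l, with 15 and 61 (1.65).

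**Figure D4:**
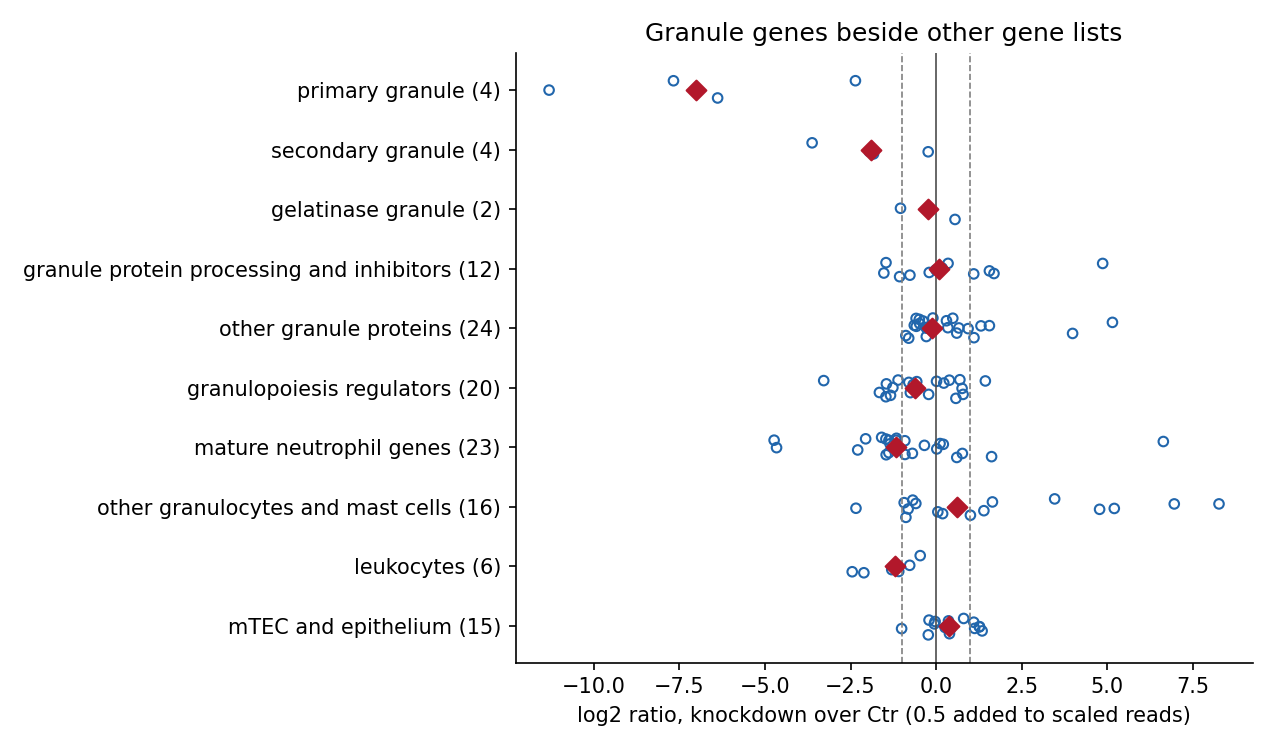
Log2 ratio of knockdown over Ctr (0.5 added to scaled reads) of each gene with at least 10 reads (open circles) in 10 gene lists, with the median of the list (diamond) and the number of genes in brackets. Vertical position within a list is jitter, and dashed lines mark 2-fold. The primary granule members, which include the Elane value that chose the set, have the lowest median, -7.03. It is -5.83 with genes without a knockdown read at the bound from 3 reads. Other granule proteins are centred near 0 at -0.12.

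Families of the members held genes of both directions, and over all genes 19.7% were lower and 22.0% higher. Among 20 granule serine proteases and relatives, including the 3 members, 11 were lower and 4 higher, with a median of -1.55. Of heme peroxidase genes related to Mpo, Epx of eosinophils was higher with 262 and 895 reads (1.39), and Lpo, the lactoperoxidase of secretions, had 8846 and 13497 (0.23). Among 18 matrix metalloproteinases 8 were lower and 4 higher (median -0.26), and among 14 lipocalins 6 were lower and 3 higher (median -0.58). Of 15 antimicrobial genes of epithelia, 3 were lower and 1 higher (median -0.32).

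Genes of other cells were set beside the granule genes, and their lists did not all move the same way. Over all genes 19.7% were lower and 22.0% higher. All 13 endothelial genes were lower (summed scaled reads 33257 and 2468, median -4.14), as were all 5 red cell genes (median -4.97), 11 of 15 thymocyte genes (25184 and 8453, median -1.29) and 4 of 7 B cell genes (3215 and 2536, median -1.88). The red cell genes include Hba-a1 and Hba-a2, near-identical copies listed with the same counts (35526 and 1478 reads each), so they are 4 separate measurements and their sum is not given. Dendritic cell and macrophage genes were lower in 7 and higher in 2 of 15 (8760 and 6529, median -0.50). Genes of other granulocytes and mast cells went the other way, with 8 of 16 higher and 1 lower (median 0.59), although their summed scaled reads were 6221 and 5104. Of 15 mTEC and epithelial genes 5 were higher and 1 lower (746048 and 858571, median 0.39). The part of any of these cells in the granule gene ratios was not tested.

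Around the members, the ratios of neighbouring genes were read along the chromosome. Elane lies between Prtn3, 3137 bp away, and Cfd, the complement factor D gene, 2636 bp away on the other side, and all 3 belong to 1 cluster of serine protease genes. Cfd had 38 Ctr and 3 knockdown reads, with a ratio of -4.04 (-6.38 to -2.39). Beyond this cluster Ptbp1, with 5399 and 5715 reads (-0.30), and Med16, with 2271 and 1568 (-0.91), were below 2-fold. At the 2-fold line the low ratios were thus those of these 3 protease genes, with few reads for Cfd. The interval of Med16 (-1.01 to -0.82) reached that line. Misp (-0.66) and R3hdm4 (-0.38), further out, were also below 0.

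Ctsg lies in the cluster of mast cell protease and granzyme genes, where the ratios were mixed. Its nearest neighbour Mcpt8, 14664 bp away and a marker of basophils, had 174 reads with the knockdown and 0 in Ctr, which, with 3 reads taken as the floor, is at least 44.6-fold higher. Gzmf, with 0 and 44 reads, was also higher. Gzmd, with 38 and 10 reads (-2.30), and Cma2, with 34 and 2 reads (-4.47), were lower. So were Gzme (38 and 21 reads, -1.23), Gzmn (27 and 5, -2.81) and Mcpt9 (10 and 0). Mcpt1, Mcpt4, Gzmg and Gzmc were neither by the rule used for the members. Over all genes 19.7% were lower and 22.0% higher. Mcpt2, with 140 and 183 reads, was level at 0.01. Next to Mpo, neither Lpo (0.23) nor Tspoap1, with 882 and 655 reads, was 2-fold lower. Beside Mmp8, the enamel protease gene Mmp20 had 36 and 214 reads (2.19) and Mmp1a had 5 and 104, both opposite to Mmp8. The nearest neighbours on both sides were 2-fold lower at Ngp (Ptpn23 -1.31, Klhl18 -1.31), Ltf (Rtp3 -6.05, Ccrl2 -1.10) and Mmp9 (Zfp335 -1.32, Slc12a5 -2.33). Neither was lower by 2-fold at Camp (Nme6 -0.12, Cdc25a 1.94) or Lcn2 (1110008P14Rik 0.14, Ptges2 0.74).

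**Figure D5:**
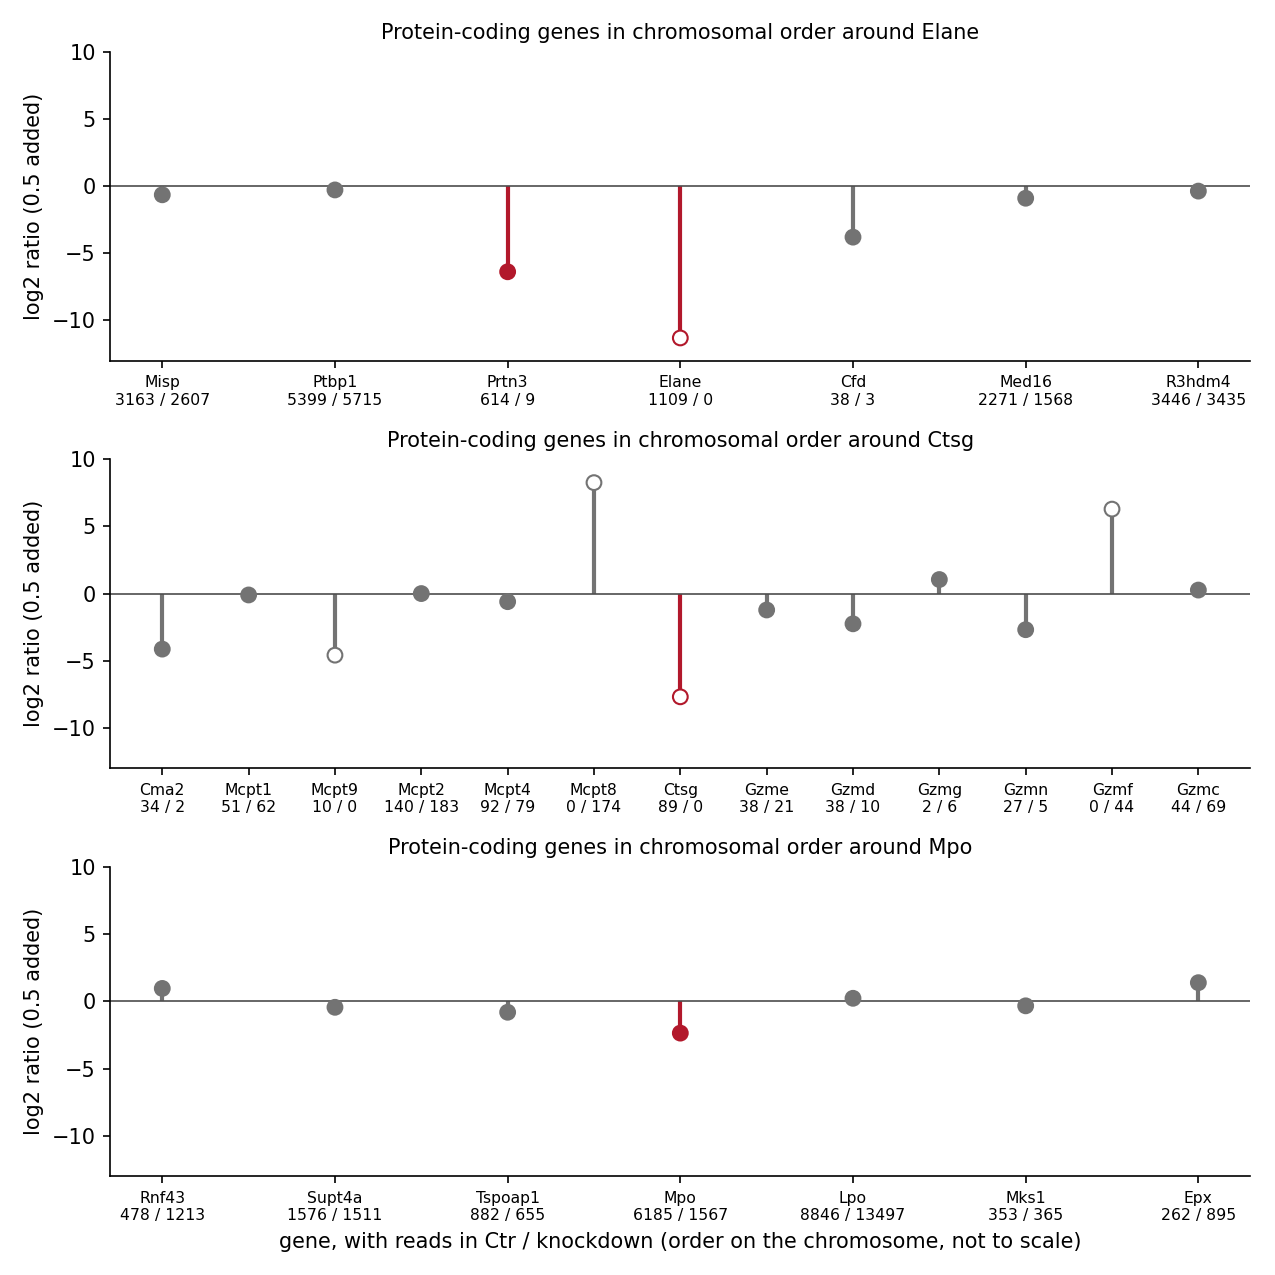
Log2 ratio of knockdown over Ctr (0.5 added to scaled reads) of protein-coding genes in their order on the chromosome around Elane, Ctsg and Mpo, not to scale, with reads in Ctr and knockdown under each name. Members are red and open circles have 0 reads in 1 library. Prtn3, Elane and Cfd are low together, while Mcpt8 (0 and 174 reads) and Ctsg (89 and 0 reads) are opposite.

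Base composition moved with the ratios of all genes. In 10 equal bins of genes by GC content the median log2 ratio went from 0.60 in the lowest bin to -0.48 in the highest, and the members ranged from 43.4% (Mmp8) to 60.7% (Prtn3) GC. Less the median of its bin, Prtn3 was at -5.90, Mpo at -2.11, Ltf at -3.60, Lcn2 at -0.15, Mmp8 at -1.52 and Mmp9 at 0.80. Camp was then at -1.74 and Ngp at -2.03, so that Ngp was closer to Mpo than without the correction. The part of base composition in the ratios was not tested.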

How the data were processed

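RNA of GFP-negative (Ctr) and GFP-positive (Clp1 knockdown) mTEChi of 1 mouse was made into SMARTer and Nextera libraries and sequenced as single-end 50 bp reads. Per the submitters' processing notes, Bowtie 1.0.0, bedtools and DESeq were used with the mm9 build. The authors deposited whole-number read counts, without normalization, for 30794 RefSeq transcripts, and for the parts of 27567 of them. Their DESeq table (normalized values, fold changes and p-values) was not used. Whether strand was used, and whether duplicate reads were removed, is not stated in these sources.

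The transcript with the most reads stood for each gene, and 30216 transcripts took a symbol from a RefSeq table (GRCm38.p6). Coordinates came from mm9 with GENCODE vM1, from the coding transcript nearest in length. Size factors by the median of ratios (0.877 and 1.14) scaled the counts, so 3 reads are 3.42 (Ctr) and 2.63 (knockdown) scaled reads. Intervals are exact (Clopper-Pearson) 95% intervals, computed with SciPy 1.17.1 in Python 3.11.15; edgeR 4.0.16 gave TMM factors. The scripts were tested on simulated data. The members and lists were chosen with earlier results of these data known. All 10 members were named; of related lists, the 3 most read genes and the 2 highest and lowest ratios came first, and other cell types were given as counts and sums. The neighbours shown, GAGGAAGT and further named list genes were chosen after values were seen. Serpina3g, Olfm4, Ly6g, Hbb-b1, Ahsp and Mmp27 were not matched.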

Additional observations from a re-analysis of the deposited data

How the results depend on the processing

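No paired analysis was possible because each group had 1 library. Every comparison rests on those 2 libraries, so counting depth limits single genes and nothing limits the spread between animals or sorts. Scaling by total counts (shift of all genes -0.02 on the log2 scale), scaling by TMM and summing transcript parts left each member read in both libraries within its counting error. Each member had 1 transcript, so summing distinct transcripts could not change its ratio. Elane and Ctsg, with 0 knockdown reads, have no lower limit and could not be judged by counting error. With 1 added, Elane went from -11.3 to -10.3 and Ctsg from -7.67 to -6.68, and the other members stayed within counting error. With the GC correction, Mpo, Mmp8 and Mmp9 moved by more than counting error. With a fold of 4 in place of 2, 5 members were lower, against 9.69% of all genes, and 12.3% of all genes were higher. With 1 in place of 0.5 added to scaled reads the primary granule median was -6.49. With at least 50 reads per gene the medians were -0.11 for processing and inhibitor genes, -0.59 for granule serine proteases and -0.91 for matrix metalloproteinases, since fewer genes were tested. Subtracting the median of genes of like GC content, an alternative chosen after seeing the data that covered 87.8% of genes, gave -0.30 for processing and inhibitor genes and -0.15 for granulopoiesis regulators; the cause was not tested.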
